A study of Mus musculus with 24 samples.

Results

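Lacrimal gland stem cell (LGSC) spheres kept for 14 days in culture were set against the adult lacrimal gland (LG), to ask which functions of the adult gland the longest cultures of the series lacked and which they reached. The comparison used 6 of the 24 samples of the series, 3 libraries of each group, and the genes whose FPKM (fragments per kilobase of transcript, scaled for library depth) averaged at least 0.5 over the 6 libraries. These were 17872 of 63862 genes. The members were therefore chosen by mean abundance, and a gene low in 1 group could pass through its level in the other alone. Of the genes tested, 904 were at 0 in every day 14 library and 351 in every adult library. Such genes could be called in 1 direction only. All libraries came from C57BL/6 mice. For the spheres, single cells from LGs of mice 6 to 8 weeks old were embedded in Matrigel with LGSCM, a serum-free medium with EGF, FGF10, Wnt3A and the ROCK inhibitor Y-27632, passaged after 7 days and sampled at passage 2 after 14 days of culture. The other group was whole adult LG tissue, whose labels give only the adult stage, and whole glands hold acinar, ductal and myoepithelial cells together with stroma, vessels, nerve and leukocytes. The labels did not say whether replicates came from separate mice or cultures, so each p-value measures only the spread between these samples.

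The LG secretes the water, salts and proteins of tears. Its acinar cells fold and glycosylate these proteins in a large endoplasmic reticulum (ER), store them in granules and release them when parasympathetic nerves raise cytosolic calcium through muscarinic receptors. Ducts modify the fluid, and myoepithelial cells contract around the acini. Basal cells with keratins 5 and 14 are held to include progenitors that proliferate in culture.

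Reads recovered from the FPKM steps came to between 7201154 and 7897286 per day 14 library and between 6434734 and 8414324 per adult library. In adult LG replicates 1, 2 and 3, the 10 most abundant genes took 60.4, 59.6 and 31.3% of reads, against 5.83 to 7.53% at day 14. The deposited values were scaled on typical genes and not on totals. The FPKM therefore summed to 2774523, 2501607 and 659916 in the adult libraries and to 310144 to 335020 at day 14, and each change given here is relative to the typical gene. Adult LG replicate 3 stood apart by milk protein genes, with *Wap* at 11684 FPKM and *Csn1s2a* at 5722 FPKM, which were at or below 2.5 FPKM in adult replicates 1 and 2. Adult LG replicate 2 alone held the salivary genes *Bpifa2* (597 FPKM) and *Smr3a* (275 FPKM). Day 14 replicate 2 stood apart by squamous genes, described with that group, and *Xist* together with Y-linked genes placed day 14 replicates 2 and 3 and adult replicate 3 apart from the other libraries in sex. These genes were chosen after their values were seen, and their part in the results was not tested, so counts are also given without day 14 replicate 2 and adult replicate 3. A low value could not be read as absence: of 5333 genes with at least 10 FPKM in the passage 10 library of the series, 2310 (43.3%) were listed in all 20 other libraries below a 10th of that value. *Epcam*, *Krt8*, *Mki67* and *Sox9* were at 0 in all 20, and 598 of the genes tested here belonged to the 2310.

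Against adult LG, 2074 genes (11.6%) were higher and 3186 (17.8%) were lower at day 14 by limma on log2(FPKM + 1) with a Benjamini-Hochberg adjusted p under 0.05. For 5054 genes (28.3%) the 95% interval of the log2 fold change lay between −1 and 1, which is called within 2-fold below. The added 1 draws low genes together, and with 0.1 added instead 1798 genes were within 2-fold. Among the 5862 genes that averaged 5 FPKM or more the share was 1186 genes (20.2%). Of all calls 39.4% were rises. When each library was scaled to a sum of 1000000 instead, the median change of all genes moved from −0.06 to 1.25 and 91.0% of calls were rises (11093 higher, 1098 lower), so the equal-sum counts are given beside those of the gene lists. Leaving out 1 library moved the number of rises from 2074 to 1281 without day 14 replicate 1, 922 without day 14 replicate 3, 1228 without adult replicate 1 and 1008 without adult replicate 2, and the number of falls from 3186 to 2015 without day 14 replicate 1, 1834 without day 14 replicate 3 and 1941 without adult replicate 2. Genes within 2-fold numbered 3307 in place of 5054 without day 14 replicate 3. Without day 14 replicate 2 and adult replicate 3 together, 2670 genes (15.5%) were higher and 4243 (24.6%) lower.

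Proteins of tears held the largest falls of the comparison. Of 54 listed genes for tear and exocrine secretory proteins, 31 passed the filter. Of these 15 were lower, 4 were higher and none was within 2-fold, beside 17.8, 11.6 and 28.3% of all genes. The median log2 fold change was −2.22 against −0.06 over all genes (6 higher and 13 lower with equal sums). *Mucl2*, a mucin-like secreted protein and the most abundant gene of the adult gland, read 0, 0 and 40.4 FPKM at day 14 and 679557, 807362 and 171251 FPKM in adult LG, a log2 fold change of −17.00 (SE 1.51, adjusted p = 0.000785). *Car6*, a carbonic anhydrase secreted into tears and saliva, read 0.185, 0 and 0.795 FPKM at day 14 and 5463, 5639 and 15948 FPKM in adult LG, a change of −12.58 (SE 0.48, adjusted p = 8.6e-05). Day 14 replicates 1 and 2 were at 0 for *Mucl2* while replicate 3 was not, and for both genes every culture value lay far under every adult value.

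*Wfdc12*, a small protein with a whey acidic core, stood at 0, 3.91 and 0.621 FPKM at day 14 and 8972, 7361 and 317 FPKM in adult LG (log2 fold change −10.43, SE 1.34, adjusted p = 0.00274). *Pip*, the prolactin-inducible protein of exocrine secretions, stood at 0, 0.0471 and 0 FPKM at day 14 and 1241, 764 and 484 FPKM in adult LG (log2 fold change −9.57, SE 0.36, adjusted p = 8.6e-05). Other defence and transport proteins fell as well. *Lyz2*, a lysozyme that macrophages also make, went from 97.3, 184 and 193 FPKM in adult LG to 0, 0 and 0.183 FPKM at day 14. The lysozyme *Lyz1* and the lactoperoxidase *Lpo* were listed at 0 in all day 14 libraries. Both were low in adult LG too, with 4.59, 3.75 and 2.80 FPKM for *Lyz1* and 2.64, 1.61 and 1.00 FPKM for *Lpo*. *Pigr*, which carries immunoglobulin A across the epithelium, fell by a log2 of 6.29, from 408, 446 and 158 FPKM to 2.4, 1.14 and 7.23 FPKM, and so stayed measurable in every culture.

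Among the genes named for the size of their fall or for a level of 0 at day 14 were 3 exocrine gland-secreting peptides, small peptides that mice release in tears. *Esp6* read 0, 0 and 3.66 FPKM at day 14 and 74649, 58508 and 9759 FPKM in adult LG (log2 fold change −14.35, SE 0.94, adjusted p = 0.000309). *Esp18* read 0.357, 0.0894 and 0.479 FPKM at day 14 and 19566, 14953 and 3941 FPKM in adult LG (log2 fold change −12.98, SE 0.60, adjusted p = 0.000113). *Esp4* was listed at 0 in every day 14 library and at 969, 809 and 834 FPKM in adult LG. The uncharacterised genes *Gm5938*, *Gm12888*, *Gm14743* and *9530002B09Rik* completed the 12 largest falls together with the genes named above and below, with log2 fold changes of −13.80, −12.12, −11.09 and −12.44. *Lipo1*, a lipase-like gene at 2033, 1577 and 297 FPKM in adult LG, was at 0 in all day 14 libraries too. So were *Gm1553* (546, 349 and 96.8 FPKM in adult LG), *Gm12886* (1314, 96.6 and 709 FPKM in adult LG) and 2 transcripts without a gene symbol. Adult replicate 3 held the lowest value of the 3 adult libraries for *Mucl2*, *Esp6* and *Wfdc12*, and the highest for *Car6* and *Gm14743*.

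What day 14 replicate 3 held of the 5 most abundant adult genes (*Mucl2*, *Scgb2b2*, *Scgb1b7*, *Scgb1b3* and *Esp6*) was between 4.24 and 7.68 per 100000 of the adult mean, whereas replicates 1 and 2 were at 0 for all 5. Over the 11 culture libraries of the series, each of the 5 reached 1 FPKM in 3. The source of these reads was not tested.

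A few antimicrobial and protease inhibitor genes of the same list went the other way. *Wfdc2*, a secreted four-disulphide core protein of ducts, read 1003, 953 and 692 FPKM at day 14 and 26.5, 44.5 and 61.9 FPKM in adult LG and rose by a log2 of 4.35 (SE 0.35, adjusted p = 0.000589). *Slpi*, the secretory leukocyte protease inhibitor, read 316, 269 and 376 FPKM at day 14 and 27.8, 30.2 and 34.4 FPKM in adult LG and rose by 3.33 (SE 0.23, adjusted p = 0.000357). The groups did not overlap for either gene, as for 47.6% of all genes. *Chil1*, a chitinase-like protein, and *Clu*, the chaperone clusterin, also rose, with 96.2, 9.7 and 411 FPKM and 23.3, 3.27 and 28 FPKM at day 14, day 14 replicate 2 being the lowest for both. The 4 rises of the list became 2 without day 14 replicate 1, day 14 replicate 3, adult replicate 1 or adult replicate 2. *Wfdc18*, chosen after its values were seen, had the highest mean of the list at day 14, with 1455, 106 and 2054 FPKM at day 14 and 2691, 4920.5 and 7875 FPKM in adult LG, and did not pass the test (log2 fold change −2.78, SE 1.12, adjusted p = 0.108). *Chil1* and *Clu* lost the call without any one of day 14 replicates 1 and 3 and adult replicates 1 and 2 (adjusted p up to 0.106).

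**Figure D1:**
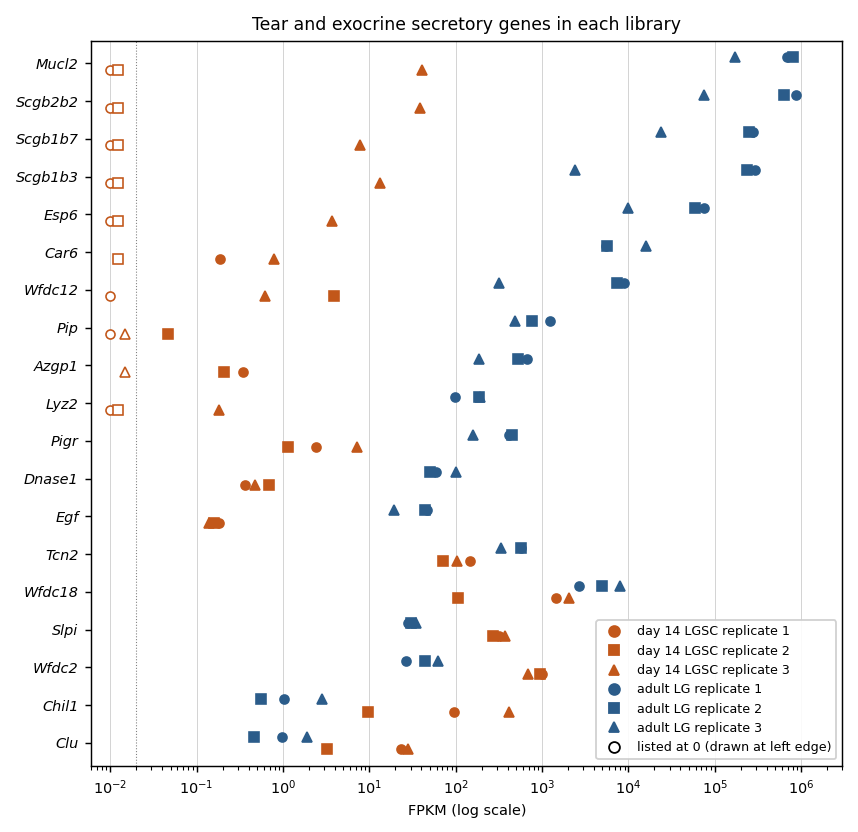
FPKM of 19 secretory genes on a log axis, 1 point per library, with orange for day 14 LGSC spheres and blue for adult LG and the marker shape for the replicate number. Open points at the left edge are libraries listed at 0. For *Mucl2* to *Tcn2* every day 14 point lies left of every adult point, and for *Slpi* to *Clu* every day 14 point lies right of them.

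Secretoglobins are small secreted proteins, and those of the *Scgb1b* and *Scgb2b* families form the androgen-binding proteins of mouse tears and saliva. Of 28 genes, 17 passed the filter, 9 were lower and none was higher, beside 17.8 and 11.6% of all genes. Members at 0 in all cultures passed the filter only through adult LG. The median log2 fold change was −4.82 (1 higher and 11 lower with equal sums). *Scgb2b2* read 0, 0 and 38.4 FPKM at day 14 and 871600.3, 624616 and 75437 FPKM in adult LG (log2 fold change −16.63, SE 1.63, adjusted p = 0.00111). *Scgb1b7* read 0, 0 and 7.75 FPKM at day 14 and 274758, 249723 and 23588 FPKM in adult LG (log2 fold change −15.80, SE 1.23, adjusted p = 0.000519). *Scgb1b3* read 0, 0 and 13.2 FPKM at day 14 and 295403, 234724 and 2374 FPKM in adult LG (log2 fold change −14.47, SE 2.03, adjusted p = 0.00377). *Scgb2b24* was at 0 in all day 14 libraries and at 712, 628 and 443 FPKM in the adult ones. Adult replicate 3 was the lowest adult library for each of these. The members that did not pass the test were mostly listed at 0 in adult replicate 3 as well as in the cultures, among them *Scgb1b12* with 909, 1054 and 0 FPKM in adult LG. Without adult replicate 3 the list had 14 falls, and without day 14 replicate 1, day 14 replicate 3 or adult replicate 2 it had 7. These genes are near-identical copies, so the split of reads among them is uncertain.

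Some regulators of the gland were lower, and the share within 2-fold was near that of all genes. Among 37 transcription factors, 13 passed the filter, 5 were lower, 1 was higher and 4 were within 2-fold, beside 17.8, 11.6 and 28.3% of all genes. The median was −0.51 (5 higher and 3 lower with equal sums, where the median lay above that of all genes). A further 24 factors stayed under the filter, 8 of them at 0 in all 6 libraries. Of the 37, 14 lay far below their passage 10 values, so the tested factors may not stand for all gland regulators. *Xbp1*, which expands the secretory ER, read 5.25, 4.81 and 9.04 FPKM at day 14 and 89.8, 65.3 and 58.8 FPKM in adult LG, a log2 fold change of −3.32 (SE 0.31, adjusted p = 0.000891). *Creb3l1*, an ER-bound activator of secretory genes, read 7.54, 0.691 and 11.6 FPKM at day 14 and 229, 212 and 60.4 FPKM in adult LG (log2 fold change −4.67, SE 0.86, adjusted p = 0.0098). *Elf5*, a factor of secretory alveolar cells, read 0.516, 9.1 and 0.655 FPKM at day 14 and 65.9, 56.8 and 61.2 FPKM in adult LG (log2 fold change −4.40, SE 0.72, adjusted p = 0.00651). *Esrrg*, an orphan nuclear receptor, read 0.452, 1.23 and 0.446 FPKM at day 14 and 16.3, 16.9 and 3.59 FPKM in adult LG (log2 fold change −2.75, SE 0.56, adjusted p = 0.0135). Day 14 replicate 2 was the lowest culture for *Creb3l1* and the highest for *Elf5*, yet every culture stayed under every adult library. Without day 14 replicate 1 or adult replicate 2, 3 members were lower. *Esrrg* lost the call without any one of day 14 replicates 1 and 3 and adult replicate 2 (adjusted p up to 0.0572). *Xbp1* was not called with equal sums.

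*Pax6*, the eye field factor needed for the LG bud, was within 2-fold, with 6.65, 13.1 and 13.3 FPKM at day 14 and 11.9, 10.5 and 10.9 FPKM in adult LG and a 95% interval of −0.79 to 0.66 for its log2 fold change. *Meis1*, a homeodomain cofactor, had 2.83, 4.46 and 4.51 FPKM at day 14 and 4.09, 3.83 and 4.59 FPKM in adult LG and an interval of −0.63 to 0.46. *Ovol2*, which maintains the epithelial state, had 6.85, 5.9 and 10 FPKM at day 14 and 5.69, 7.17 and 5.71 FPKM in adult LG and an interval of −0.37 to 0.84. *Ehf* was also within 2-fold, at or below 3.04 FPKM in all 6 libraries and far below its passage 10 value. *Klf5*, a factor of proliferating epithelium, was the member that rose, with 28.8, 65.1 and 35.2 FPKM at day 14 and 1.93, 4.22 and 13.1 FPKM in adult LG and a log2 fold change of 2.79 (SE 0.61, adjusted p = 0.0175). *Bhlha15*, a factor of acinar maturation, was listed at 0 in all 6 libraries and was not tested, and this 0 cannot be read as absence. *Klf5* lost the call without any one of day 14 replicates 2 and 3 and adult replicate 2 (adjusted p up to 0.0648).

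Part of the machinery that makes and folds secretory proteins was lower. The ER list (translocation, folding and glycosylation) had 55 genes, of which 44 passed the filter. Of these 17 were lower, none was higher and 3 were within 2-fold, beside 17.8, 11.6 and 28.3% of all genes. The median was −1.05 (19 higher and 2 lower with equal sums, where the median was above 0 and below that of all genes). The count rested on single libraries, with 37 falls without adult replicate 3, 5 to 9 without any other library, and 34 without day 14 replicate 2 and adult replicate 3 together. Of the 38 tested genes not far below the passage 10 library 15 were lower. Among the 3 within 2-fold, *Krtcap2* and *Spcs1* were at or below 1.29 FPKM and far below their passage 10 values. *Sdf2l1*, a stress-induced ER protein, read 64.2, 35.9 and 53.9 FPKM at day 14 and 978, 829 and 181 FPKM in adult LG (log2 fold change −3.38, SE 0.66, adjusted p = 0.0117). *Dnajc3*, a co-chaperone of BiP, read 57.8, 54.7 and 55.6 FPKM at day 14 and 641, 524 and 143 FPKM in adult LG (log2 fold change −2.68, SE 0.56, adjusted p = 0.0149). *Sec11c*, a signal peptidase subunit, read 96.4, 49.6 and 66.2 FPKM at day 14 and 638, 531 and 192 FPKM in adult LG (log2 fold change −2.54, SE 0.51, adjusted p = 0.0126). *Srpr*, the receptor of the signal recognition particle, read 141, 104 and 121 FPKM at day 14 and 1064, 900.0 and 257 FPKM in adult LG (log2 fold change −2.36, SE 0.54, adjusted p = 0.0206). In each of these genes adult replicates 1 and 2 lay close together and replicate 3 stood between them and the cultures. *Dnajc3* lost the call without any one of day 14 replicates 1 and 3 and adult replicate 2 (adjusted p up to 0.0589). *Sec11c* lost the call without any one of day 14 replicate 3 and adult replicate 2 (adjusted p up to 0.0531). *Srpr* lost the call without any one of day 14 replicates 1, 2 and 3 and adult replicates 1 and 2 (adjusted p up to 0.0764). *Dnajc3*, *Sec11c* and *Srpr* were not called with equal sums.

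The chaperone *Hsp90b1* (GRP94) was within 2-fold, with 284, 166 and 292 FPKM at day 14 and 303, 246 and 150.5 FPKM in adult LG and an interval of −0.77 to 0.96. The chaperone *Hspa5* (BiP), which opens the unfolded protein response when it is drawn away by unfolded chains, was chosen here for its promoter and read 460.3, 309 and 437 FPKM at day 14 and 1249, 1039.6 and 322 FPKM in adult LG, with a log2 fold change of −0.91 (SE 0.53, adjusted p = 0.235). Its adult replicate 3 lay at the level of the cultures while adult replicates 1 and 2 lay over 2-fold above them.

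Promoter sequences were looked at because members of the list that share a chaperone function kept different shares of their adult level. The ER stress element, through which the unfolded protein response raises chaperone transcription, was searched as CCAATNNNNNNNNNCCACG and as its reverse complement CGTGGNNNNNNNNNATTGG in the 250 bases before each start in the RefSeq table (build GRCm38.p6). It was present in 6 of 35 ER genes with a table entry (17.1%) and in 35 of all 27025 genes (0.130%). Of the 6 holders *Dnajc3* and *Calr* were lower at day 14, and of the 29 without the element 10 were lower, with median log2 fold changes of −0.37 and −1.18. The 6 windows are shown 5′ to 3′ on the gene's strand, in lower case with the outer bases of the element in capitals.
Hspa5: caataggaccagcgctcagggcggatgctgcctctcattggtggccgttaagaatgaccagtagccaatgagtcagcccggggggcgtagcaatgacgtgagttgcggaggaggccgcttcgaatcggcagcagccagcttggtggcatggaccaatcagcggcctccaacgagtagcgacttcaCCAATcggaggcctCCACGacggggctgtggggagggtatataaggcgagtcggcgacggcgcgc
Hsp90b1: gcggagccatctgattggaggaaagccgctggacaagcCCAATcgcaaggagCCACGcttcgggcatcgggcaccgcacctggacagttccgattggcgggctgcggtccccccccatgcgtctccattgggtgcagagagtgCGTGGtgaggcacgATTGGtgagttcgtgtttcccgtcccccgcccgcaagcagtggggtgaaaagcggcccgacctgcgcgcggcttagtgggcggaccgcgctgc
Calr: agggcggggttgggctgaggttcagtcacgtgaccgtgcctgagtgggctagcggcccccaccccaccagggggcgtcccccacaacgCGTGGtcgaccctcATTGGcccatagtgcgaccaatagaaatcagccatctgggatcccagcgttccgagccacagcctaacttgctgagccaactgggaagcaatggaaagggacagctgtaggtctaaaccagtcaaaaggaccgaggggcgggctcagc
Canx: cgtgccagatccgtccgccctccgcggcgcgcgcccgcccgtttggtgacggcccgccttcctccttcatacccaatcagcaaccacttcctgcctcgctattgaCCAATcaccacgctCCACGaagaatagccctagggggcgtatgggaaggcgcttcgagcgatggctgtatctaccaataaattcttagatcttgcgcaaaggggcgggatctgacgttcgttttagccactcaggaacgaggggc
Pdia6: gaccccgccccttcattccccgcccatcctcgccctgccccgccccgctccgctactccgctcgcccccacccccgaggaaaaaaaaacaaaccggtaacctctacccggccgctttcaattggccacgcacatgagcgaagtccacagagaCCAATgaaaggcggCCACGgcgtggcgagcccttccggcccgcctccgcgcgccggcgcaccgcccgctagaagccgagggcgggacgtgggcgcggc
Dnajc3: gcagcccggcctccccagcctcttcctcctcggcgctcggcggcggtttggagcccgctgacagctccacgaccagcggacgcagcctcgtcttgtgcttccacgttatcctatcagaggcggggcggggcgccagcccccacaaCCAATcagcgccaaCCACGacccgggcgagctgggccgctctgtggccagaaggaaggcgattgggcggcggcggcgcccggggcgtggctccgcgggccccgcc
The windows lie at chr2:34771840-34772089 on the plus strand (*Hspa5*), chr10:86705445-86705694 on the minus strand (*Hsp90b1*, which held a match on each strand), chr8:84846932-84847181 on the minus strand (*Calr*), chr11:50325674-50325923 on the minus strand (*Canx*), chr12:17266339-17266588 on the plus strand (*Pdia6*) and chr14:118937682-118937931 on the plus strand (*Dnajc3*). The lectin chaperone *Canx* had 268, 177 and 228 FPKM at day 14 and 186, 171 and 97 FPKM in adult LG and the disulphide isomerase *Pdia6* had 368, 209 and 318 FPKM at day 14 and 398, 337 and 143 FPKM in adult LG, neither past the test, with log2 fold changes of 0.60 (SE 0.32, adjusted p = 0.208) and 0.12 (SE 0.44, adjusted p = 0.864). The lectin chaperone *Calr* was listed at no more than 6.48 FPKM in any of the 6 libraries, far below its passage 10 value. Of the holders, *Hspa5*, *Hsp90b1*, *Pdia6* and *Canx* overlapped with adult LG, and *Dnajc3* and *Calr* did not, beside 47.6% of all genes without overlap. A match to these letters is a description of the window and not a binding site shown in these cells.

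**Figure D2:**
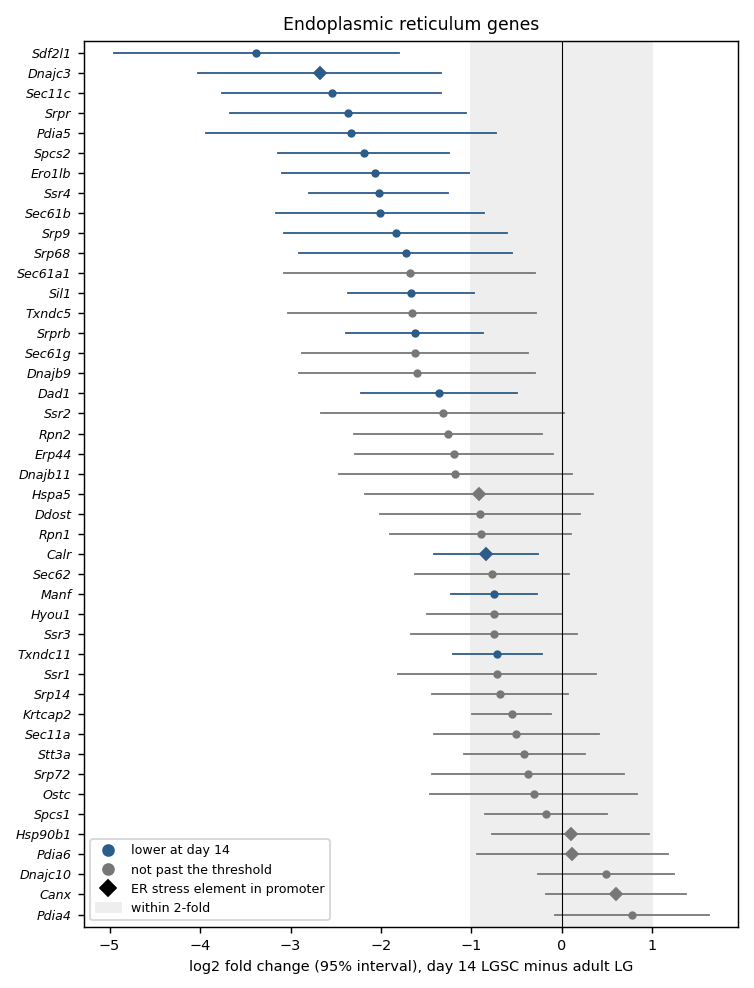
Log2 fold change with its 95% interval (day 14 minus adult LG, on log2(FPKM + 1)) of the 44 ER genes tested, ordered by size, blue for lower, grey for not past the threshold, diamonds for the 6 promoters with an ER stress element and shading for 2-fold. The 17 blue intervals lie left of 0, and 2 of the 6 diamonds are blue. With equal sums the list counts 19 higher and 2 lower.

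Other steps of the secretory route showed the same dependence on adult replicate 3. Of 15 tested genes of the unfolded protein response and ER degradation 5 were lower and none higher, beside 17.8 and 11.6% of all genes. The median was −0.86 (7 higher and 0 lower with equal sums, where the median was above 0 and below that of all genes). *Selenos*, which helps to remove misfolded proteins, read 83.7, 51.4 and 65.8 FPKM at day 14 and 720.4, 605 and 192 FPKM in adult LG (log2 fold change −2.72, SE 0.53, adjusted p = 0.0115). *Sel1l*, the partner of the Hrd1 ubiquitin ligase, read 2.58, 2.44 and 2.35 FPKM at day 14 and 21.4, 18.8 and 8.61 FPKM in adult LG (log2 fold change −2.23, SE 0.35, adjusted p = 0.00556). The falls numbered 10 without adult replicate 3 and 2 without any other library. *Selenos* and *Sel1l* were not called with equal sums. *Ddit3* (CHOP), which marks unresolved ER stress, was within 2-fold, at 2.75, 1.77 and 4 FPKM at day 14 and 3.15, 2.39 and 3.52 FPKM in adult LG.

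For Golgi transport and vesicle coats 27 genes were tested, 4 were lower, 1 was higher and 4 were within 2-fold, beside 17.8, 11.6 and 28.3% of all genes. The median was −0.77 (16 higher and 0 lower with equal sums, where the median lay above that of all genes). *Tmed3*, a cargo receptor, read 45.3, 49.3 and 62 FPKM at day 14 and 610.2, 529.7 and 169 FPKM in adult LG (log2 fold change −2.85, SE 0.50, adjusted p = 0.00842). The coatomer subunit *Cope* read 127, 95.5 and 111 FPKM at day 14 and 539, 521 and 199 FPKM in adult LG (log2 fold change −1.78, SE 0.42, adjusted p = 0.0223). *Sec23a*, a subunit of the COPII coat, was the member that rose, with 18.5, 17.4 and 21.8 FPKM at day 14 and 6.94, 9.45 and 10.9 FPKM in adult LG. Without adult replicate 3 there were 22 falls and without any other library 1. The 4 members within 2-fold were all at or below 2.33 FPKM and far below their passage 10 values. *Cope* and *Sec23a* lost the call without any one of day 14 replicates 1, 2 and 3 and adult replicates 1 and 2 (adjusted p up to 0.097). *Tmed3* and *Cope* were not called with equal sums.

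Some granule GTPases of regulated exocytosis were lower. Of 35 genes 18 were tested, 7 were lower, 1 was higher and 5 were within 2-fold, beside 17.8, 11.6 and 28.3% of all genes. The median was −0.44 (8 higher and 2 lower with equal sums). *Rab27a*, *Rab26* and *Rab3a*, GTPases of secretory granules, and *Myrip*, which links Rab27 to myosin, were the largest falls. *Rab3a* read 9.93, 8.53 and 7.78 FPKM at day 14 and 85.7, 93.4 and 45.7 FPKM in adult LG (log2 fold change −2.90, SE 0.32, adjusted p = 0.00162). *Rab26* read 0.157, 0.0788 and 0.253 FPKM at day 14 and 14.4, 13.3 and 6.25 FPKM in adult LG (log2 fold change −3.33, SE 0.32, adjusted p = 0.00108). *Rab27a* read 2.6, 31.5 and 5.15 FPKM at day 14 and 158, 130.3 and 42.2 FPKM in adult LG (log2 fold change −3.43, SE 0.89, adjusted p = 0.0311). With equal sums *Rab3a* and *Rab27a* were not called. *Myrip* was at 0 in every culture and at 36.4, 27.6 and 12.9 FPKM in adult LG. *Rab27a* lost the call without any one of day 14 replicates 1 and 3 and adult replicates 1 and 2 (adjusted p up to 0.107).

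Day 14 replicate 2 held 31.5 FPKM of *Rab27a*, several times the other cultures, while still under the lowest adult library. *Rab11a*, a GTPase of recycling endosomes in most cells, rose from 11.5, 8.54 and 9.47 FPKM in adult LG to 29.4, 29.6 and 26.1 FPKM at day 14. *Stxbp2*, a syntaxin-binding protein of epithelial granules, had 6.69, 3.94 and 4.8 FPKM at day 14 and 4.19, 4.32 and 4.92 FPKM in adult LG, with an interval of −0.42 to 0.71. The granule tether *Sytl1* had 3.48, 5.76 and 4.06 FPKM at day 14 and 5.93, 5.89 and 4.89 FPKM in adult LG, with an interval of −0.86 to 0.27. Leaving out any single library gave between 4 and 9 falls.

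Muscarinic receptors of the secretory stimulus were lower in the cultures. Of 43 genes for neural stimulation and calcium signalling 26 were tested, 7 were lower, 2 were higher and 2 were within 2-fold, beside 17.8, 11.6 and 28.3% of all genes. Without adult replicate 2 there was 1 rise, and without adult replicate 3 there were 4. The median was −0.32 (14 higher and 3 lower with equal sums, where the median lay above that of all genes). *Chrm3*, the muscarinic receptor that drives tear secretion, read 4.36, 0.485 and 4.6 FPKM at day 14 and 24.3, 25.8 and 16.8 FPKM in adult LG (log2 fold change −2.69, SE 0.54, adjusted p = 0.0131). *Chrm1*, another muscarinic receptor, read 0.104, 0.312 and 0.204 FPKM at day 14 and 5.56, 6.86 and 2.14 FPKM in adult LG (log2 fold change −2.18, SE 0.36, adjusted p = 0.00694). *Atp2a3*, a calcium pump of the ER, read 0.191, 0.0638 and 0.296 FPKM at day 14 and 23.9, 36.4 and 51.6 FPKM in adult LG (log2 fold change −4.96, SE 0.31, adjusted p = 0.000263). Day 14 replicate 2 held the least *Chrm3* of the cultures, and no culture reached the lowest adult library for any of the 3 genes. *Chrm3* lost the call without adult replicate 2 (adjusted p = 0.0521) and with equal sums.

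The ATP-gated channel *P2rx4* fell too, with 5.03, 2.46 and 3.46 FPKM at day 14 and 28.1, 24.4 and 13.8 FPKM in adult LG (log2 fold change −2.29, SE 0.35, adjusted p = 0.00499). In contrast, *Stim2*, an ER calcium sensor, had 32.9, 33.1 and 29.2 FPKM at day 14 and 33.4, 36.3 and 21.3 FPKM in adult LG and an interval of −0.54 to 0.73, and *Gnaq*, the G protein behind muscarinic receptors, had 8.51, 12.6 and 9.9 FPKM at day 14 and 10.9, 15 and 10.4 FPKM in adult LG and an interval of −0.81 to 0.40. The ADP receptor *P2ry1* and the plasma membrane calcium pump *Atp2b1* rose, with log2 fold changes of 1.43 (SE 0.28, adjusted p = 0.0119) and 1.52 (SE 0.24, adjusted p = 0.00532). *P2ry1* lost the call without adult replicate 2 (adjusted p = 0.0505). *P2rx4* was not called with equal sums.

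Water and ion transport genes moved in both directions. Of 48 genes 30 were tested, 9 were lower, 4 were higher and 3 were within 2-fold, beside 17.8, 11.6 and 28.3% of all genes. Without day 14 replicate 3 or adult replicate 2 there was 1 rise, and without day 14 replicate 1 or adult replicate 1 there were 2. The median was −0.35 (14 higher and 5 lower with equal sums, where the median lay above that of all genes). The water channel *Aqp8* read 0.142, 0.142 and 0 FPKM at day 14 and 466, 329.8 and 91.5 FPKM in adult LG (log2 fold change −7.79, SE 0.59, adjusted p = 0.000465). The water channel *Aqp1*, which capillary endothelium also uses, read 0.128, 0.171 and 0.275 FPKM at day 14 and 86.6, 134 and 243 FPKM in adult LG (log2 fold change −6.90, SE 0.39, adjusted p = 0.000167). *Aqp3*, a channel for water and glycerol of basal and squamous epithelia, read 76.9, 2448 and 225 FPKM at day 14 and 8.16, 14.5 and 42.5 FPKM in adult LG and rose by 4.26 (SE 1.27, adjusted p = 0.0467), with day 14 replicate 2 at over 10 times the other cultures. The acinar water channel *Aqp5* stayed at or below 0.568 FPKM in all 6 libraries and was not tested. By staining, the paper reports high AQP5 protein in secretory cells of the mouse LG. The low *Aqp5* values, in adult LG too, therefore cannot be read as absence. *Aqp3* lost the call without any one of day 14 replicates 2 and 3 and adult replicates 1, 2 and 3 (adjusted p up to 0.139).

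*Atp6v1b1*, a proton pump subunit of acid-secreting cells, had 15.5, 19.3 and 43.8 FPKM in adult LG, and *Fxyd1*, a regulator of the sodium pump, had 6.45, 11 and 24.5 FPKM. Both fell to at most 0.22 FPKM at day 14. *Cftr*, the chloride channel of duct cells, rose from 0.107, 0.366 and 0.253 FPKM to 2.05, 2.33 and 1.19 FPKM (log2 fold change 1.19, SE 0.23, adjusted p = 0.0117). The potassium-chloride cotransporter *Slc12a7* rose from 0.785, 1.79 and 3.23 FPKM to 8.52, 5.76 and 6.2 FPKM (log2 fold change 1.49, SE 0.35, adjusted p = 0.0227). *Lrrc8a*, of the volume-regulated anion channel, had 6.98, 6.18 and 6.73 FPKM at day 14 and 5.48, 5.13 and 6.36 FPKM in adult LG and an interval of −0.27 to 0.67. The anion exchanger *Slc4a2* and the chloride transporter *Clcn3* were within 2-fold as well, at or below 2.20 FPKM. *Slc12a7* lost the call without any one of day 14 replicates 1 and 3 and adult replicate 2 (adjusted p up to 0.0782).

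Spheres were epithelial at day 14, with some junction genes lower and some higher than in the gland. Of 20 epithelial identity markers 12 were tested, 6 were higher and none lower (10 higher and 0 lower with equal sums), beside 11.6 and 17.8% of all genes. The summed level of the 20 was 4575, 1534 and 3383 FPKM at day 14 and 2580, 2876 and 2450 FPKM in adult LG. Without day 14 replicate 3 there were 3 rises, without adult replicate 1 or 2 there were 4, and of the 9 tested markers that were not far below the passage 10 library 4 were higher. *Epcam* and *Krt8* were among the 4 markers at 0 in all 6 libraries. *Cdh1* (E-cadherin) read 894, 388 and 707 FPKM at day 14 and 121, 141 and 146 FPKM in adult LG (log2 fold change 2.20, SE 0.34, adjusted p = 0.00532). In the list of apical junctions and polarity 19 genes were tested. Of these 5 were lower, 3 were higher and 3 were within 2-fold, beside 17.8, 11.6 and 28.3% of all genes. The median was −0.08 (11 higher and 3 lower with equal sums, where the median lay above that of all genes).

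*Cldn10*, a claudin that forms ion-selective pores in secretory epithelia, read 5.37, 0.0867 and 6.92 FPKM at day 14 and 463, 381 and 97.4 FPKM in adult LG (log2 fold change −6.09, SE 0.91, adjusted p = 0.00477). *Cldn8*, a claudin of tight distal epithelia, read 3.14, 5.68 and 3.83 FPKM at day 14 and 72.7, 104 and 144 FPKM in adult LG (log2 fold change −4.35, SE 0.33, adjusted p = 0.00049). *Cldn1*, a barrier claudin, rose from 4.85, 7.58 and 16.1 FPKM to 57.3, 34.7 and 63.3 FPKM (log2 fold change 2.43, SE 0.45, adjusted p = 0.01). *Cldn7* rose from 15.3, 17 and 20.9 FPKM to 90.3, 75.4 and 68.4 FPKM (log2 fold change 2.08, SE 0.23, adjusted p = 0.00171). *Cldn5*, which also marks endothelium, was at 0 in all cultures. The scaffold *Tjp1* (ZO-1) had 4.14, 4.88 and 4.31 FPKM at day 14 and 2.44, 2.67 and 4.25 FPKM in adult LG and an interval of −0.14 to 0.99.

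Ductal markers moved in both directions. Of 17 tested, 5 were higher, 5 were lower and none was within 2-fold, beside 11.6, 17.8 and 28.3% of all genes. The median was 1.10 (8 higher and 1 lower with equal sums). *Cp* (ceruloplasmin), a copper-carrying oxidase, read 59.2, 17.8 and 60.5 FPKM at day 14 and 1.17, 2.37 and 6.31 FPKM in adult LG (log2 fold change 3.45, SE 0.62, adjusted p = 0.00909). *Krt20*, a keratin of surface epithelia, read 5.01, 155 and 53 FPKM at day 14 and 0, 0 and 0.136 FPKM in adult LG (log2 fold change 5.15, SE 1.09, adjusted p = 0.0157). *Kit*, a receptor kinase of ductal and progenitor cells that mast cells also carry, read 6.32, 1.3 and 3.62 FPKM at day 14 and 15.8, 26 and 59.5 FPKM in adult LG (log2 fold change −2.82, SE 0.60, adjusted p = 0.0154). The groups overlapped for none of these 3 genes, as for 47.6% of all genes. Without day 14 replicate 3 or adult replicate 2 the list had 3 rises and 2 falls, without adult replicate 1 it had 3 rises, and without day 14 replicate 1, day 14 replicate 2 or adult replicate 3 it had 3 falls. *Krt20* lost the call without any one of day 14 replicate 3 and adult replicates 1 and 2 (adjusted p up to 0.0636). *Kit* lost the call without any one of day 14 replicate 3 and adult replicate 2 (adjusted p up to 0.0559), and with equal sums.

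Of 14 tested markers of basal, stem or progenitor cells 4 were higher and 2 lower, beside 11.6 and 17.8% of all genes (9 higher and 0 lower with equal sums). Without day 14 replicate 3 or adult replicate 2 there were 2 rises and 0 falls, and without adult replicate 1 there were 2 rises. *Krt17*, a keratin of basal and regenerating epithelium, read 3079, 1580.2 and 3011 FPKM at day 14 and 37.7, 45.1 and 111 FPKM in adult LG (log2 fold change 5.39, SE 0.48, adjusted p = 0.000794). *Ngfr*, a neurotrophin receptor of basal cells that nerve also expresses, read 14.1, 117 and 68.8 FPKM at day 14 and 0.962, 1.1 and 5.86 FPKM in adult LG (log2 fold change 4.04, SE 0.85, adjusted p = 0.0153). *Krt14*, the basal keratin by which the study follows stem cells, read 4.66, 8.18 and 3.35 FPKM at day 14 and 0.236, 0.538 and 0.597 FPKM in adult LG (log2 fold change 2.07, SE 0.31, adjusted p = 0.00484). Its partner *Krt5* read 0.461, 2.05 and 1.54 FPKM at day 14 and 0, 0 and 0.18 FPKM in adult LG (log2 fold change 1.09, SE 0.31, adjusted p = 0.0393). Both keratins were higher in each culture than in each adult library, and both lay far below the passage 10 library. Of the 10 tested markers of the list that did not, 2 were higher and 2 lower. *Cd24a*, a surface protein of many epithelia, had 453, 821 and 461 FPKM at day 14 and 611, 509 and 414 FPKM in adult LG and an interval of −0.60 to 0.88. *Ngfr* lost the call without any one of day 14 replicate 3 and adult replicates 1 and 2 (adjusted p up to 0.0632). *Krt5* lost the call without any one of day 14 replicate 3 and adult replicates 1, 2 and 3 (adjusted p up to 0.126).

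Myoepithelial genes moved in both directions. Of 19 tested 9 were higher and 5 lower, beside 11.6 and 17.8% of all genes. The median was 0.77 (10 higher and 3 lower with equal sums). The contractile genes *Cnn1* (calponin), *Myl9* (regulatory myosin light chain) and *Lmod1* (leiomodin) fell, while *Acta2*, *Actg2* and *Tagln* did not pass the test. *Acta2* (smooth muscle actin) read 24.9, 2.71 and 180 FPKM at day 14 and 105, 110 and 524 FPKM in adult LG (log2 fold change −2.82, SE 1.41, adjusted p = 0.175). *Cnn1* read 0.041, 0 and 0.924 FPKM at day 14 and 15, 14.6 and 84.7 FPKM in adult LG (log2 fold change −4.46, SE 0.70, adjusted p = 0.00558) and *Myl9* read 0.483, 0.193 and 2.9 FPKM at day 14 and 24.3, 27.7 and 90.8 FPKM in adult LG (log2 fold change −4.41, SE 0.64, adjusted p = 0.0043). *Des* (desmin) was at 0 in all cultures. For *Cnn1* and *Myl9*, day 14 replicate 3 was the highest culture and adult replicate 3 the highest adult library. The rises were *Krt17*, *Krt14* and *Krt5*, the tropomyosins *Tpm2* (21.2, 25.4 and 43.4 FPKM at day 14 and 0.997, 0.867 and 4.96 FPKM in adult LG) and *Tpm1*, and *Itga3*, *Smtn*, *Palld* and *Col17a1*, which basal and migrating epithelial cells use too. Smooth muscle of vessels in whole LG expresses the contractile genes as well. Leaving out any single library gave between 3 and 9 rises. *Krt14*, *Krt5*, *Itga3* and *Col17a1* lay far below the passage 10 library. Of the 14 tested genes that did not, 5 were higher and 5 lower.

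Most tested markers of the stroma, vessels and leukocytes of the adult gland were lower in the cultures. Markers were lower in 10 of 11 tested fibroblast genes, 11 of 12 endothelial, 12 of 13 leukocyte, 8 of 8 MHC class II and 4 of 5 plasma cell genes, set against 17.8% of all genes. With equal sums the falls numbered 7, 9, 9, 5 and 4 in the same order, with 1 fibroblast, 1 endothelial and 1 plasma cell gene higher. The counts of fibroblast and endothelial falls were the same when any single library was left out. Markers at 0 in all cultures passed the filter only through adult LG. *C1qa*, a complement gene of macrophages, was at 0 at day 14 and at 143, 315 and 365 FPKM in adult LG. *Cd74*, the MHC class II invariant chain, read 2.23, 0.877 and 1.37 FPKM at day 14 and 592, 1206 and 1122 FPKM in adult LG (log2 fold change −8.58, SE 0.36, adjusted p = 0.0001). The endothelial gene *Plvap* read 0.621, 0.622 and 0.606 FPKM at day 14 and 251, 336 and 572 FPKM in adult LG (log2 fold change −7.82, SE 0.33, adjusted p = 0.0001). *Col3a1*, a fibrillar collagen, read 0, 0 and 0.245 FPKM at day 14 and 46.5, 65.3 and 41.6 FPKM in adult LG (log2 fold change −5.57, SE 0.25, adjusted p = 0.000111). The small proteoglycan *Dcn* read 0.0577, 1.02 and 0.144 FPKM at day 14 and 55.4, 95.8 and 186 FPKM in adult LG (log2 fold change −6.23, SE 0.49, adjusted p = 0.000537).

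Summed over its 20 genes, the leukocyte level was 0.542 to 4.20 FPKM at day 14 and 260.4 to 618 FPKM in adult LG, with 9 markers at 0 in all cultures, and the MHC class II sum was 4.37 to 51.7 FPKM against 1321 to 2545 FPKM. *H2-Ab1* at 0.891, 3.36 and 46.1 FPKM made up most of the highest culture value, in day 14 replicate 3. Fibroblast sums were 10.6, 172 and 45.6 FPKM at day 14 and 252, 411 and 542 FPKM in adult LG. Endothelial sums were 52.2, 5.00 and 55.9 FPKM at day 14 and 359, 477 and 929 FPKM in adult LG. *Fbln1* (7.6, 164 and 37.2 FPKM) and *Flt1* (50.8, 3.53 and 54.9 FPKM) made up most of the culture sums for fibroblast and endothelial markers, and neither passed the test. In bulk samples fewer cells of a type and less RNA per cell cannot be told apart. Nerve markers fell in 4 of 8 tested genes (3 higher and 2 lower with equal sums, and 2 falls without any single day 14 library), and *Mal*, a membrane protein of myelin and of apical epithelium, rose with 27.6, 735 and 53.5 FPKM at day 14 and 2.69, 6.02 and 9.39 FPKM in adult LG. Of 4 tested adipocyte markers 2 were lower, with no call at equal sums and 0 to 1 falls when any single library was left out. Of 9 tested sebaceous and Harderian lipid genes 3 were lower and 1 (*Fads2*) was higher, beside 17.8 and 11.6% of all genes, with 3 higher and 0 lower at equal sums. Leaving out any single library gave 1 to 4 sebaceous falls, 1 without day 14 replicate 1, day 14 replicate 3 or adult replicate 2. Of 16 skeletal muscle markers only *Tnni2* passed the filter, at or below 1.43 FPKM in all 6 libraries. The part of these cell types in the falls of other lists was not tested. *Mal* lost the call without any one of day 14 replicate 3 and adult replicates 1, 2 and 3 (adjusted p up to 0.132).

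**Figure D3:**
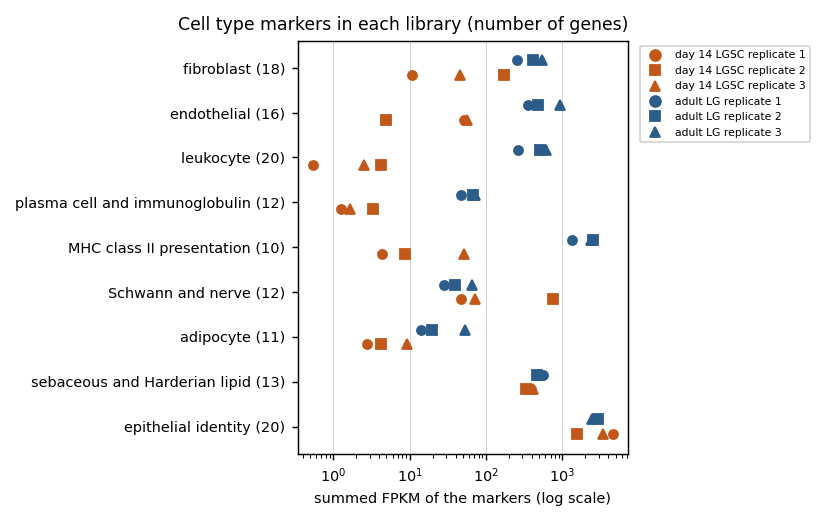
Summed FPKM of the listed markers of each cell type on a log axis, 1 point per library, with the number of genes in brackets, orange for day 14 and blue for adult LG. Leukocyte, plasma cell and MHC class II sums at day 14 lie at least 10-fold under the adult sums, while epithelial and sebaceous sums lie within the same range of the axis.

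The 12 largest rises held chemokines, proteases and their inhibitors, and cell cycle inhibitors. *Cxcl5*, a chemokine for neutrophils, read 546, 134 and 729 FPKM at day 14 and 0.445, 0.508 and 1.13 FPKM in adult LG (log2 fold change 7.82, SE 0.63, adjusted p = 0.000584). *Ppbp*, another neutrophil chemokine, read 10.6, 201 and 171 FPKM at day 14 and 0.383, 0.291 and 0.605 FPKM in adult LG (log2 fold change 5.70, SE 1.06, adjusted p = 0.0101). *Pkp1*, a desmosome plaque protein, read 405, 501 and 379 FPKM at day 14 and 1.82, 3.33 and 5.74 FPKM in adult LG (log2 fold change 6.62, SE 0.36, adjusted p = 0.000158). *Timp1*, an inhibitor of metalloproteinases, read 641, 82.6 and 719 FPKM at day 14 and 5.6, 2.84 and 6.79 FPKM in adult LG (log2 fold change 5.86, SE 0.84, adjusted p = 0.00411). No adult library reached a culture for any of the 4, which the rule for naming them required.

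The neighbouring genes *Cdkn2a* and *Cdkn2b* encode INK4 inhibitors of the G1 kinases, and *Cdkn2a* also ARF. *Cdkn2b* read 465, 227 and 306 FPKM at day 14 and 4.46, 5.89 and 4.24 FPKM in adult LG (log2 fold change 5.78, SE 0.32, adjusted p = 0.000158). *Cdkn2a* read 103, 49.3 and 58.4 FPKM at day 14 and 0, 0.269 and 0 FPKM in adult LG (log2 fold change 5.97, SE 0.32, adjusted p = 0.000158). *Hmga2*, a chromatin protein of embryonic and progenitor cells, read 106, 54.2 and 42.2 FPKM at day 14 and 0.184, 0.0466 and 0.0968 FPKM in adult LG (log2 fold change 5.84, SE 0.36, adjusted p = 0.000245). The standard errors of these 3 were among the smallest of the 12. *Tmprss11g*, a serine protease of surface epithelia, *Clca3a2*, a chloride channel accessory protein, *Crabp2*, a retinoic acid binding protein, *Galnt6*, which starts O-glycan chains, and *Sh2d5* completed the list, with log2 fold changes of 6.50, 5.78, 5.65, 5.42 and 5.55.

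Cell division genes were higher in the cultures than in the gland even at day 14. Of 22 tested genes of G2 and mitosis 18 were higher, none was lower and 2 were within 2-fold. The median was 1.42 (21 higher and 0 lower with equal sums) beside 11.6% rises among all genes. *Ccnb1*, the mitotic cyclin, read 7.56, 12.6 and 7.42 FPKM at day 14 and 0.885, 0.748 and 1.18 FPKM in adult LG (log2 fold change 2.36, SE 0.26, adjusted p = 0.00158). *Plk1*, a mitotic kinase, read 15.7, 15.8 and 12 FPKM at day 14 and 1.7, 2.87 and 3.4 FPKM in adult LG (log2 fold change 2.11, SE 0.26, adjusted p = 0.00249). *Ube2c*, the ubiquitin carrier of the anaphase-promoting complex, read 22.3, 32.5 and 28.1 FPKM at day 14 and 2.07, 2.43 and 4.54 FPKM in adult LG (log2 fold change 2.87, SE 0.30, adjusted p = 0.00136). The microtubule protein *Psrc1* read 79.7, 20.7 and 81.6 FPKM at day 14 and 2.83, 1.78 and 1.13 FPKM in adult LG (log2 fold change 4.21, SE 0.56, adjusted p = 0.00316). Leaving out any single library gave 15 to 19 rises. A further 24 genes of the list, *Mki67* among them, stayed under the filter.

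Genes of DNA replication had rises too. Of 31 tested S phase genes 11 were higher, 1 was lower and 7 were within 2-fold, beside 11.6, 17.8 and 28.3% of all genes. The median was 0.50 (28 higher and 0 lower with equal sums), and 3 to 10 were higher when any single library was left out. The helicase subunit *Mcm3* read 28.1, 29.7 and 25.5 FPKM at day 14 and 8.84, 11.1 and 9.16 FPKM in adult LG (log2 fold change 1.43, SE 0.21, adjusted p = 0.00433), and *Mcm4* of the same complex read 29.2, 38.4 and 24.2 FPKM at day 14 and 11.4, 9.76 and 11.1 FPKM in adult LG (log2 fold change 1.40, SE 0.25, adjusted p = 0.00829). *E2f2*, an activator of S phase genes, was the member that fell, with 1.63, 1.54 and 1.01 FPKM at day 14 and 6.11, 5.69 and 5.94 FPKM in adult LG. The clamp loader subunit *Rfc5* (9.57, 9.89 and 7.83 FPKM at day 14 and 8.43, 8.38 and 4.83 FPKM in adult LG) and the primase subunit *Prim1* (2.78, 8.89 and 4.67 FPKM at day 14 and 5.04, 4.4 and 4.81 FPKM in adult LG) were within 2-fold.

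Many genes of carbon and sterol metabolism were higher at day 14. Of 22 tested genes of glycolysis and lactate handling 9 were higher and 1 was lower, beside 11.6 and 17.8% of all genes. The median was 1.04 (18 higher and 0 lower with equal sums). *Eno1* (enolase) read 563, 465 and 632 FPKM at day 14 and 50.2, 79.5 and 99.5 FPKM in adult LG (log2 fold change 2.88, SE 0.31, adjusted p = 0.00142). *Pgk1* (phosphoglycerate kinase) read 643, 835 and 1332 FPKM at day 14 and 181, 181 and 139 FPKM in adult LG (log2 fold change 2.43, SE 0.32, adjusted p = 0.00284). *Slc16a3*, which exports lactate, read 25.2, 55.2 and 109.5 FPKM at day 14 and 1.17, 1.42 and 3.43 FPKM in adult LG (log2 fold change 4.26, SE 0.56, adjusted p = 0.00302). *Car9*, a surface carbonic anhydrase induced by hypoxia, read 8.47, 3.85 and 31.8 FPKM at day 14 and 0.18, 0.684 and 1.25 FPKM in adult LG (log2 fold change 2.80, SE 0.69, adjusted p = 0.0253). Day 14 replicate 3 was the highest library for these 4 genes. *Slc2a3*, a glucose transporter of neurons and leukocytes, was the member that fell, with 0.031, 0.0931 and 0.0664 FPKM at day 14 and 0.915, 1.13 and 2.57 FPKM in adult LG. *Car9* lost the call without any one of day 14 replicate 1 and adult replicates 1 and 2 (adjusted p up to 0.0832). *Slc2a3* lost the call without any one of day 14 replicates 1, 2 and 3 (adjusted p up to 0.0709), and with equal sums.

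In cholesterol synthesis 12 of 18 tested genes were higher and none was lower, beside 11.6 and 17.8% of all genes. The median was 1.58 (17 higher and 0 lower with equal sums). *Fdft1* (squalene synthase) read 49.1, 91.6 and 91.3 FPKM at day 14 and 6.57, 9.92 and 19.9 FPKM in adult LG (log2 fold change 2.65, SE 0.45, adjusted p = 0.00734). The isomerase *Idi1* read 5.31, 14.6 and 17.9 FPKM at day 14 and 1.3, 1.26 and 0.673 FPKM in adult LG (log2 fold change 2.58, SE 0.44, adjusted p = 0.00732). Day 14 replicate 1 was the lowest culture for both, yet lay above every adult library. Leaving out any single library gave 7 to 12 rises, and without day 14 replicate 2 and adult replicate 3 together 8 rises and 2 falls. Of the 15 tested genes not far below the passage 10 library 10 were higher.

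**Figure D4:**
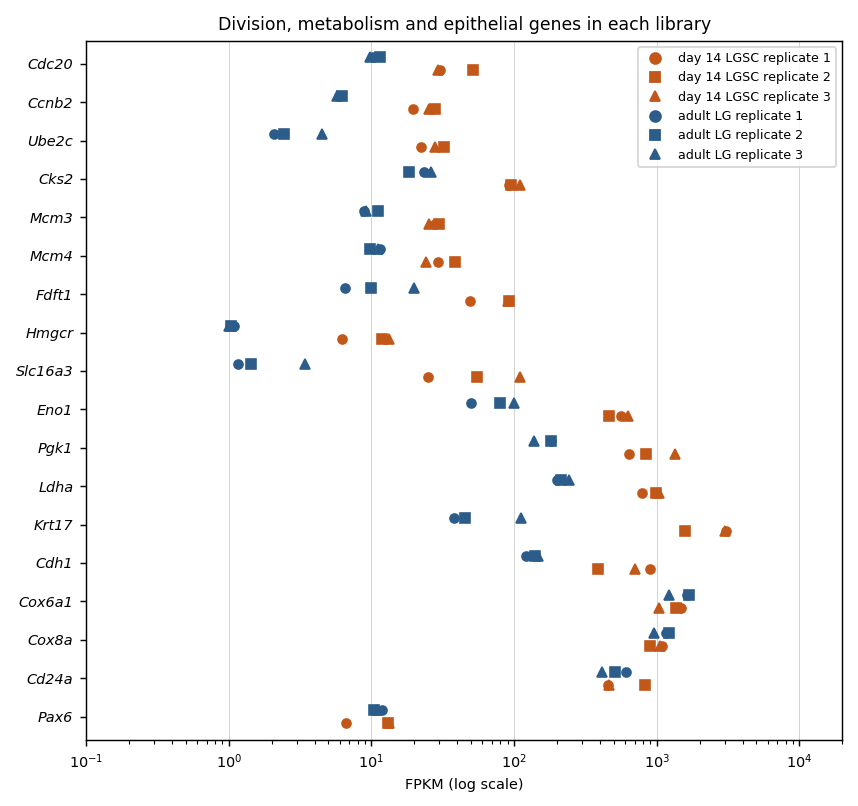
FPKM of 18 genes on a log axis, 1 point per library, orange for day 14 and blue for adult LG, from mitosis (*Cdc20* to *Cks2*) and replication through cholesterol synthesis and glycolysis to *Krt17* and *Cdh1*. For *Cdc20* to *Cdh1* every day 14 point lies right of every adult point, while *Cox6a1*, *Cox8a*, *Cd24a* and *Pax6* overlap and are within 2-fold.

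Several squamous genes were far higher in day 14 replicate 2 than in the other cultures. Of 14 tested genes 3 were higher and none lower, beside 11.6 and 17.8% of all genes, although the median was 2.03. There were 8 higher and 0 lower with equal sums, and 0 to 4 rises when any single library was left out. Day 14 replicate 2 held *Krt13* at 863 FPKM and *Krt1* at 193 FPKM, keratins of stratified epithelium, with both other cultures at or below 0.661 FPKM, and *Ly6d* at 1375 FPKM against 9.05 and 48.0 FPKM. *Krt18*, a keratin of simple epithelium, was 152 FPKM there and 1734 and 1142 FPKM in replicates 1 and 3, and the secreted phosphoprotein *Spp1* 84.3 FPKM against 3416 and 2901 FPKM. *Cdsn* (corneodesmosin) passed the test, with 2.64, 49.9 and 8.45 FPKM at day 14 and 0, 0 and 0.539 FPKM in adult LG (log2 fold change 3.38, SE 0.90, adjusted p = 0.033). *Sprr2e*, of the cornified envelope, was at 0 in adult LG and at 2.08, 7.47 and 43.1 FPKM at day 14. *Cdsn* lost the call without any one of day 14 replicate 3 and adult replicates 1, 2 and 3 (adjusted p up to 0.101). *Sprr2e* lost the call without any one of day 14 replicate 2 and adult replicates 1, 2 and 3 (adjusted p up to 0.0917).

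Mesenchymal state genes moved in both directions. Of 20 tested 8 were higher and 4 lower, beside 11.6 and 17.8% of all genes. There were 10 higher and 1 lower with equal sums, and 3 to 9 rises when any single library was left out. Of the 17 tested genes not far below the passage 10 library 5 were higher and 4 lower. *Snai2* (Slug), a factor of basal epithelium and of epithelial-mesenchymal transition, read 21.7, 68.9 and 68.1 FPKM at day 14 and 3.27, 4.66 and 11.8 FPKM in adult LG (log2 fold change 2.82, SE 0.59, adjusted p = 0.0149). The plasminogen activator *Plat* read 59.7, 48.8 and 46.7 FPKM at day 14 and 1.39, 2.38 and 4.79 FPKM in adult LG (log2 fold change 3.86, SE 0.36, adjusted p = 0.000873). The EGF receptor ligands *Hbegf* and *Ereg* rose by 2.40 and 3.87. The falls were genes that fibroblasts express, *Mmp3* (0, 0.0624 and 0.334 FPKM at day 14 and 9.21, 15.8 and 54.4 FPKM in adult LG), *Thbs2*, *Postn* and *Twist1*, with log2 fold changes of −4.24, −2.84, −2.68 and −2.41. *Snai2* lost the call without any one of day 14 replicate 3 and adult replicates 1 and 2 (adjusted p up to 0.0623). *Thbs2* lost the call without any one of day 14 replicates 1 and 3 and adult replicate 2 (adjusted p up to 0.0593). *Thbs2*, *Postn* and *Twist1* were not called with equal sums.

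Respiration had the largest share of members within 2-fold among the 22 function lists. Of 53 tested nuclear subunits of oxidative phosphorylation 24 were within 2-fold, beside 28.3% of all genes, and of the 36 that averaged 5 FPKM or more 14 were, beside 20.2%. Of the 53, 4 were lower and none was higher. The median was −0.28 (44 higher and 0 lower with equal sums, where the median lay above that of all genes). *Cox6a1*, a subunit of cytochrome c oxidase, read 1487, 1359.8 and 1036 FPKM at day 14 and 1636, 1690.3 and 1212 FPKM in adult LG, with an interval of −0.80 to 0.35. *Cox8a*, of the same enzyme, read 1097, 898 and 1050.3 FPKM at day 14 and 1165, 1217 and 959.9 FPKM in adult LG, with an interval of −0.62 to 0.35. The ATP synthase subunit *Atp5a1* read 649, 579 and 618 FPKM at day 14 and 904, 905 and 451 FPKM in adult LG, with an interval of −0.98 to 0.54. In all 3 genes the groups overlapped, and adult replicate 3 was the lowest adult library.

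The falls were the complex I subunits *Ndufb9* (286, 225 and 224 FPKM at day 14 and 855, 762 and 347 FPKM in adult LG), *Ndufa1* (310.4, 246 and 255 FPKM at day 14 and 819, 690.3 and 374 FPKM in adult LG) and *Ndufv1*, with log2 fold changes of −1.32, −1.14 and −1.13, and *Ndufa5*, which was at 0 in all cultures and at or below 1.53 FPKM in adult LG. Without adult replicate 3 there were 21 falls, without any other library none, and without day 14 replicate 2 and adult replicate 3 together 17 falls and 1 rise. *Ndufb9*, *Ndufa1* and *Ndufv1* lost the call without any one of day 14 replicates 1, 2 and 3 and adult replicates 1 and 2 (adjusted p up to 0.141).

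Of 25 tested interferon response genes 5 were lower and none higher, beside 17.8 and 11.6% of all genes. The median was −0.67 (4 higher and 0 lower with equal sums, where the median was above 0 and below that of all genes, and 2 to 6 falls when any single library was left out). *Ifi27* read 0.382, 0.613 and 6.81 FPKM at day 14 and 10.2, 11.4 and 10.5 FPKM in adult LG (log2 fold change −2.17, SE 0.65, adjusted p = 0.0466). *Gbp3*, a guanylate-binding protein, read 1.07, 0.895 and 3.65 FPKM at day 14 and 4.7, 9.56 and 20.5 FPKM in adult LG (log2 fold change −2.05, SE 0.57, adjusted p = 0.0372). Day 14 replicate 3 was the highest culture for both. *Ifi35* was within 2-fold, at 1.82, 1.24 and 2.23 FPKM at day 14 and 1.92, 1.1 and 2.35 FPKM in adult LG. *Ifi27* lost the call without any one of day 14 replicates 1 and 2 and adult replicates 1, 2 and 3 (adjusted p up to 0.133). *Gbp3* lost the call without any one of day 14 replicates 1 and 2 and adult replicates 2 and 3 (adjusted p up to 0.114). *Ifi27* and *Gbp3* were not called with equal sums.

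Of 12 tested immediate early genes, which stress and tissue dissociation also raise, 5 were lower and 1 was higher, beside 17.8 and 11.6% of all genes. The median was −1.20 (4 higher and 0 lower with equal sums, and 2 to 5 falls when any single library was left out). The transcription factor *Egr1* read 5.18, 8.22 and 13.6 FPKM at day 14 and 72.1, 115 and 217 FPKM in adult LG (log2 fold change −3.71, SE 0.49, adjusted p = 0.00306). *Egr1* was not called with equal sums. *Fosl1*, the AP-1 subunit that rose, read 51.7, 51.1 and 43.2 FPKM at day 14 and 1.7, 2.4 and 10.1 FPKM in adult LG (log2 fold change 3.41, SE 0.53, adjusted p = 0.00542).

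Of 8 genes at 0 in every adult library that were picked for their level at day 14, *Defb14*, an epithelial beta-defensin, had 6.6, 405 and 53.1 FPKM, and *Lce1h*, a late cornified envelope gene, had 10.6, 6.05 and 11.6 FPKM. The other 6 were *Trav13-2* (10.6, 15.3 and 14.2 FPKM), *Gm22340*, *Gm38079*, *Gm6637*, *Mir6907* and a transcript without a gene symbol, all between 4.74 and 24.6 FPKM at day 14. Of 13 genes taken from those the study names, 5 passed the filter. *Krt14*, *Krt5*, *Cdh1* and *Actb* were higher, *Actb* (beta-actin) with 488, 426 and 546 FPKM at day 14 and 114, 153 and 233 FPKM in adult LG (log2 fold change 1.59, SE 0.31, adjusted p = 0.0113). *Ltf*, the tear protein lactotransferrin, had 1.27, 2.18 and 3.21 FPKM at day 14 and 0.961, 1.1 and 6.65 FPKM in adult LG (log2 fold change −0.02, SE 0.56, adjusted p = 0.985, 95% interval −1.37 to 1.33), and lay far below its passage 10 value. *Aqp5*, *Krt19*, *Trp63*, *Nes*, *Kdr*, *Fap*, *Mki67* and *Epcam* did not pass the filter. *Defb14* lost the call without any one of day 14 replicate 3 and adult replicates 1 and 2 (adjusted p up to 0.0669). *Actb* lost the call without day 14 replicate 3 (adjusted p = 0.0564).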

How the data were processed

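Total RNA was extracted with Trizol, mRNA was selected with poly-T beads, and libraries (NEBNext Ultra) were sequenced as 150-bp paired-end Illumina reads. The submitters' processing notes name CASAVA 1.8, HISAT2 2.0.5, featureCounts 1.5.0-p3 and the build NCBIM37. The authors deposited 1 table of FPKM per library, and their own tests used DESeq2 on counts not used here. Whole reads were recovered from the FPKM steps for 92.6 to 93.6% of values (tolerance 0.01 reads, values up to 1000 reads, 20 libraries) and the scale factors showed median-type scaling. Columns of per-sample values left unused numbered 0.

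Genes that averaged 0.5 FPKM or more in the 6 libraries were tested with limma 3.58.1 (lmFit, eBayes with trend, R 4.3.3) on log2(FPKM + 1), with Benjamini-Hochberg adjustment over all 17872 genes and a threshold of 0.05. Fold changes are on that scale and understate the change of low genes. Intervals are at 95% and unadjusted. In simulated data a log2 change of 2 was called in 61 of 197 genes (31.0%, 13327 genes run) and of 4 in 171 of 200 (85.5%, 13335 genes run), with 0.175 and 0.167% of unchanged genes called.

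The gene lists and members were chosen with earlier results of these data known. Symbols come from GENCODE M21, and *Aldoa* has 2 identifiers there. Genes were named by rule. The 12 largest called rises and falls were of protein-coding genes with at least 10 FPKM in the higher group and groups that did not overlap. Among genes at 0 in a whole group, the rule took the 8 whose lowest library in the other group was highest. Up to 4 rises, falls and genes within 2-fold per list were added, and 13 of the genes the study names. Some genes that the rule names are not reported here. *Wap*, *Csn1s2a*, *Bpifa2*, *Smr3a*, *Xist*, *Sox9*, *Krt8*, *Wfdc18*, *Lyz1*, *Lyz2*, *Lpo*, *Pigr*, *Scgb1b12*, *Bhlha15*, *Hspa5*, *Canx*, *Calr*, *Pdia6*, *H2-Ab1*, *Fbln1*, *Flt1*, *Mal*, *Acta2*, *Actg2*, *Tagln*, *Itga3*, *Smtn*, *Palld*, *Col17a1*, *Krt1*, *Krt13*, *Krt18*, *Ly6d* and *Spp1* were named after their values were seen where no part of the rule names them. Alternatives changed the added constant, the filter, the scaling, the weights, the libraries and the model.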

Additional observations from a re-analysis of the deposited data

How the results depend on the processing

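The counts over all genes and over each gene list were recomputed under 18 other settings. Rises and falls, 2074 and 3186 as reported, numbered 937 and 1383 among genes of at least 5 FPKM, 11093 and 1098 with equal sums, 4789 and 6214 with library weights (arrayWeights, whose iteration stopped early), and 3593 and 5114 with all 20 libraries in 1 model. Genes within 2-fold, 5054 as reported, numbered 1798 with 0.1 added, 21016 of 35674 genes without a filter, 1178 at 5 FPKM or more, 212 with equal sums, and 1401 and 1083 with limma-voom on recovered reads without and with the replicate block. Limma-voom called 1393 rises and 2694 falls. Leaving out 1 library gave 922 to 2698 rises, 1834 to 4358 falls and 3307 to 4820 genes within 2-fold, where the numbers tested and the sample sizes changed as well. Of 2697 pairs of a named gene and a setting, 2485 kept direction and side of the threshold, 158 lost the call, 39 gained one and 15 turned direction. Of 125 called named genes, 93 kept the call without each single library. Equal sums took the call from 19 named genes and gave one to 14. The 19 were the falls *Xbp1*, *Dnajc3*, *Sec11c*, *Srpr*, *Selenos*, *Sel1l*, *Tmed3*, *Rab3a*, *Rab27a*, *Chrm3*, *P2rx4*, *Kit*, *Slc2a3*, *Thbs2*, *Postn*, *Twist1*, *Ifi27*, *Gbp3* and *Egr1*.

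The 15 turns all came with equal sums, which moved the median of all genes by 1.32: the log2 fold change became 2.13 for *Atp5a1*, 0.57 for *Cope*, 2.13 for *Cox6a1*, 2.22 for *Cox8a*, 1.65 for *Ddit3*, 0.15 for *E2f2*, 1.96 for *Gnaq*, 1.44 for *Hspa5*, 1.497 for *Ifi35*, 1.81 for *Meis1*, 1.21 for *Ndufa1*, 1.03 for *Ndufb9*, 1.15 for *Ndufv1*, 2.09 for *Pax6* and 1.69 for *Sytl1*.

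Deviations of same-numbered libraries correlated at 0.0564, −0.0334 and 0.0746, against −0.0841 to 0.0609 for other pairs of numbers. With 3 libraries per group these correlations cannot decide whether the replicate numbers pair the samples. With the replicate block 1513 genes were higher, 2699 lower and 4354 within 2-fold, and 121 of the 125 called named genes kept the call.

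Chosen after seeing the data, leaving out day 14 replicate 2 and adult replicate 3 together gave 2670 rises, 4243 falls and 4419 genes within 2-fold, and leaving out the genes far below the passage 10 library gave 2007, 3185 and 4594. A depth of 6434734 to 8414324 recovered reads per library limits what can be said of genes below 1 FPKM. For a gene of 1 kb, 1 read stood for 0.41, 0.32 and 0.13 FPKM in adult replicates 1, 2 and 3. At day 14 it stood for 0.11 to 0.12 FPKM, so a 0 in adult replicates 1 and 2 is less sensitive.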

Other observations

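Ribosomal protein genes were grouped after their values were seen. Of 50 with a mean of at least 5 FPKM, 31 (62.0%) were within 2-fold, 1 was higher and 1 was lower. Among all genes at that level the shares were 20.2, 15.1 and 22.5%. The median log2 fold change of the 50 was 0.13. In the fit without the genes far below the passage 10 library, 24 of the 40 left were within 2-fold. *Fau* read 2988, 2812 and 2976 FPKM at day 14 and 2974, 2986 and 2109 FPKM in adult LG, and *Rpl4* read 1282, 1366 and 1482 FPKM at day 14 and 1901, 1606 and 913 FPKM in adult LG. The values of both genes overlapped or nearly met between the groups. *Rpl36al* had the lowest log2 fold change, at −2.74, and *Rps2* the highest, at 0.95. With equal sums 48 of the 50 were higher, none was lower and none was within 2-fold. Leaving out any single library gave between 17 and 36 genes within 2-fold.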
